A study of Mus musculus with 11 samples.

Results

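Macrophage polarization genes are the transcripts by which an inflammatory, classically activated (M1) state and a repair-associated, alternatively activated (M2) state of macrophages are usually told apart. The set described here held 7 named genes, *Arg1*, *Nos2*, *Chi3l3*, *Retnla*, *Inhba*, *Il10* and *Il4ra*, read from the 26921 genes listed in the files of all 11 libraries. They were followed in infiltrating macrophages, perivascular macrophages (PVMs) and microglia of mice with experimental autoimmune encephalomyelitis (EAE), and *Arg1* and *Nos2* were also followed together in single cells. Of the 7 genes, 6 had at least 1 transcript in EAE macrophages, and *Retnla* had none in any cell of the EAE libraries.

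The libraries held single cells of myelin-depleted cerebral cortex of C57BL/6 mice, captured on the 10x Chromium system and counted by unique molecular identifiers (UMIs), short tags that mark the single transcripts. EAE is an autoimmune inflammation of the central nervous system, raised here in female mice of 7 to 11 weeks with a myelin oligodendrocyte glycoprotein peptide in complete Freund's adjuvant followed by pertussis toxin, and sampled at the peak of disease (2 libraries). The labels list no treatment for the other groups, which were adult mice of 7 to 11 weeks (3 libraries), juvenile mice at postnatal day 10 (4 libraries) and aged mice of 18 months (2 libraries), so adjuvant and toxin went with the disease in every comparison with adults. Cortices of 3 mice were pooled for EAE and for aged samples, and of 6 mice for adult and for juvenile samples.

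Arginine is the substrate on which the set turns. *Arg1* encodes arginase 1, which splits arginine into ornithine and urea and is the classical M2 gene in the mouse, while *Nos2* encodes inducible nitric oxide synthase, which makes nitric oxide from the same amino acid and is the classical M1 gene. *Chi3l3* (current symbol *Chil3*, also Ym1) encodes a secreted chitinase-like lectin, *Retnla* (Fizz1) a resistin-like secreted protein, *Inhba* the subunit that forms activin A, *Il10* an anti-inflammatory cytokine, and *Il4ra* the shared receptor chain for interleukin 4 and interleukin 13, the cytokines that drive the M2 state through STAT6. Microglia are the resident macrophages of the brain parenchyma, PVMs lie along vessels behind the endothelium, and monocytes that enter the tissue in EAE become infiltrating macrophages.

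On GRCm38 (GENCODE M21) the protein-coding genes lie at chr10:24915221-24927484 (*Arg1*, minus strand), chr11:78920787-78960254 (*Nos2*, plus), chr3:106147554-106167564 (*Chi3l3*, minus), chr16:48842551-48844461 (*Retnla*, plus), chr13:16011851-16031621 (*Inhba*, plus), chr1:131019845-131024974 (*Il10*, plus) and chr7:125552120-125579474 (*Il4ra*, plus). *Chi3l3* has a near copy, *Chil4*, and 77 of 451 stretches of 50 bases in the last 500 bases of the *Chi3l3* transcript (17.1%) occur in the *Chil4* transcript too, so part of its reads could match both. *Chil4*, listed as *Chi3l4*, had 0 UMIs in the EAE macrophages of both libraries. Whether shared reads were lost in counting was not tested. No such stretch of *Arg1*, *Nos2* or *Retnla* occurred in the relatives searched.

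Promoter sequences from RefSeq (GRCm38.p6) are shown for the genes with the highest EAE macrophage levels in that reference table, *Chi3l3* and *Inhba*, and for *Retnla*, which is paired with *Chi3l3* as an M2 gene but was not seen in EAE. Each runs 5′ to 3′ on the strand of its gene from 250 bases before to 10 bases after the start. Capitals mark matches, on either strand, to the C/EBP motif TTNNGNAA, the TATA box motif TATAAA and a STAT6 motif, and no marked matches overlap. The STAT6 motif is the STAT motif given next with 4 in place of 3 free bases in its middle. The other motifs searched, left in lower case, were TGANTCA (AP-1), TTCNNNGAA (STAT), GAGGAAG (PU.1) and GGG and CC with 5 bases between them (NF-kB).
Chi3l3, chr3:106167555-106167814, minus strand: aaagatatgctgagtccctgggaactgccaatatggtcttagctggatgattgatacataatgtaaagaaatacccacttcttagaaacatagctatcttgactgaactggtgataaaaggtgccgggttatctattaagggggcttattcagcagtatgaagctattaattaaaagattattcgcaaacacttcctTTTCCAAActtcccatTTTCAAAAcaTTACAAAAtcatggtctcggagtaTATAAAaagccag
Inhba, chr13:16011601-16011860, plus strand: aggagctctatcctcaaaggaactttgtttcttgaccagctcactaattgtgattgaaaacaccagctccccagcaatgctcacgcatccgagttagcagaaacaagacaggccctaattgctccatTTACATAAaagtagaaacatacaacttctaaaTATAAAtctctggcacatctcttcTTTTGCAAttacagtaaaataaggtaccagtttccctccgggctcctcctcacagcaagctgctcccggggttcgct
Retnla, chr16:48842359-48842618, plus strand: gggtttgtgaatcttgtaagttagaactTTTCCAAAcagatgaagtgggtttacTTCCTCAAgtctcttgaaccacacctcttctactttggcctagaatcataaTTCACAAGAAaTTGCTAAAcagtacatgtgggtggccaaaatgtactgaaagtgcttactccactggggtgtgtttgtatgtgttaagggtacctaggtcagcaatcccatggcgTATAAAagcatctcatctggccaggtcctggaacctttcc

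*Chi3l3* held 3 C/EBP matches, *Retnla* 3 C/EBP matches and the only STAT6 match of these promoters, *Inhba* 2 C/EBP matches, and each held 1 match to the TATA box motif. Counted from the start, these TATAAA matches began at -3 in *Chi3l3*, -91 in *Inhba* and -30 in *Retnla*. Of the unmarked motifs, *Chi3l3* held 1 STAT and 1 NF-kB match, *Inhba* 1 NF-kB match, and *Retnla* 1 PU.1 match that overlaps a C/EBP match, while AP-1 had none. Of 32851 promoters of the same 260 bases, 37.7% held a C/EBP match, 6.09% a STAT6 match, 12.7% a TATA box match, 7.03% an AP-1 match, 7.33% a STAT match, 11.1% a PU.1 match and 46.9% an NF-kB match. These matches describe letters in a window and nothing about the binding of a factor. *Arg1*, *Nos2* and *Il10* had no entry in that promoter table.

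The EAE libraries held 34326349 and 34123281 UMIs and the others 15755504 to 23425535. After filtering 50625 of 54646 barcodes were kept, 8322 and 8096 of them from EAE libraries. The EAE cells included 754 and 699 infiltrating macrophages (9.06% and 8.63% of cells), 272 and 268 PVMs, and 1423 and 1443 microglia, named from marker lists in which none of the 7 genes took part. Adult libraries held only 6, 9 and 8 cells with the macrophage markers. All 13 macrophage markers were present in EAE macrophages, at a summed level of 15413 and 14973 CPM (the UMIs of a gene relative to all UMIs of that cell class in that library, in the usual scaling of sequencing counts), against 773 and 666 in PVMs and 452 and 414 in microglia. PVM markers summed to 499 and 507 CPM in macrophages and 8198 and 8237 in PVMs, and microglial markers to 220 and 287 in macrophages and 7948 and 7883 in microglia. Red blood cell markers stood at 2032 CPM in macrophages of EAE 1 but 47.0 in those of EAE 2, and choroid plexus markers at 5059 to 10886 CPM in the 3 EAE myeloid classes, and their part in the results was not tested. The EAE libraries shared 113 cell barcodes, 1.4% of the smaller, within the range over all pairs of libraries (0.373% to 1.53%). In their counts the EAE libraries were nearly alike, since the chi-square per gene between their summed macrophage counts was 1.21 times that between odd and even cells of a library, and 1.18 times for microglia and 1.12 for PVMs. Microglia of Adult 2 and Adult 3 stood at 1.0, and those of Adult 1 at 3.85 and 3.87 from them. Juvenile microglia fell into pairs, with 1.70 and 1.17 within and 7.60 to 10.4 between Juvenile 1 or 2 and Juvenile 3 or 4. The p-values below therefore measure the spread between libraries of pooled tissue, which may be technical. In the edgeR fit this spread was estimated over 24 sums of 9 groups of all ages, not from the EAE libraries alone.

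In EAE macrophages, *Chi3l3* was by far the most abundant transcript of the set, *Inhba* and *Arg1* followed, *Il4ra* and *Nos2* were lower, and *Il10* was near the limit of detection. *Chi3l3* reached 3245 CPM in EAE 1 and 3258 CPM in EAE 2, and 70.8% and 68.8% of macrophages held a UMI of it. *Inhba* stood at 258 CPM in each library, with a UMI in 22.4% and 21.2% of macrophages. *Arg1* stood at 242 and 209 CPM, carried by 137 of 754 cells (18.2%, exact 95% binomial interval 15.5 to 21.1) and 111 of 699 cells (15.9%, 13.2 to 18.8). All of these intervals cover counting error only.

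*Nos2* stood at 60.6 and 76.5 CPM, carried by 100 cells (13.3%, 10.9 to 15.9) and 109 cells (15.6%, 13 to 18.5). Thus with all UMIs the M2 gene *Arg1* and the M1 gene *Nos2* were found in similar shares of macrophages, with *Arg1* higher in level in both libraries. After each cell was thinned to 1500 UMIs, *Arg1* was found in 11.8% and 9.62% of macrophages. *Nos2* was then found in fewer, 6.02% and 7.14%. *Il4ra* was spread most evenly, at 92.2 and 86.2 CPM with a UMI in 37.7% and 36.1% of macrophages. *Il10* was seen in 3 and 7 macrophages (0.67 and 2.60 CPM), and *Retnla* in 0 of 1453, which allows a share of cells with a UMI of up to 0.206% (3 counts of the total, counting error only) and sets no limit on cells that express it.

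**Figure D1:**
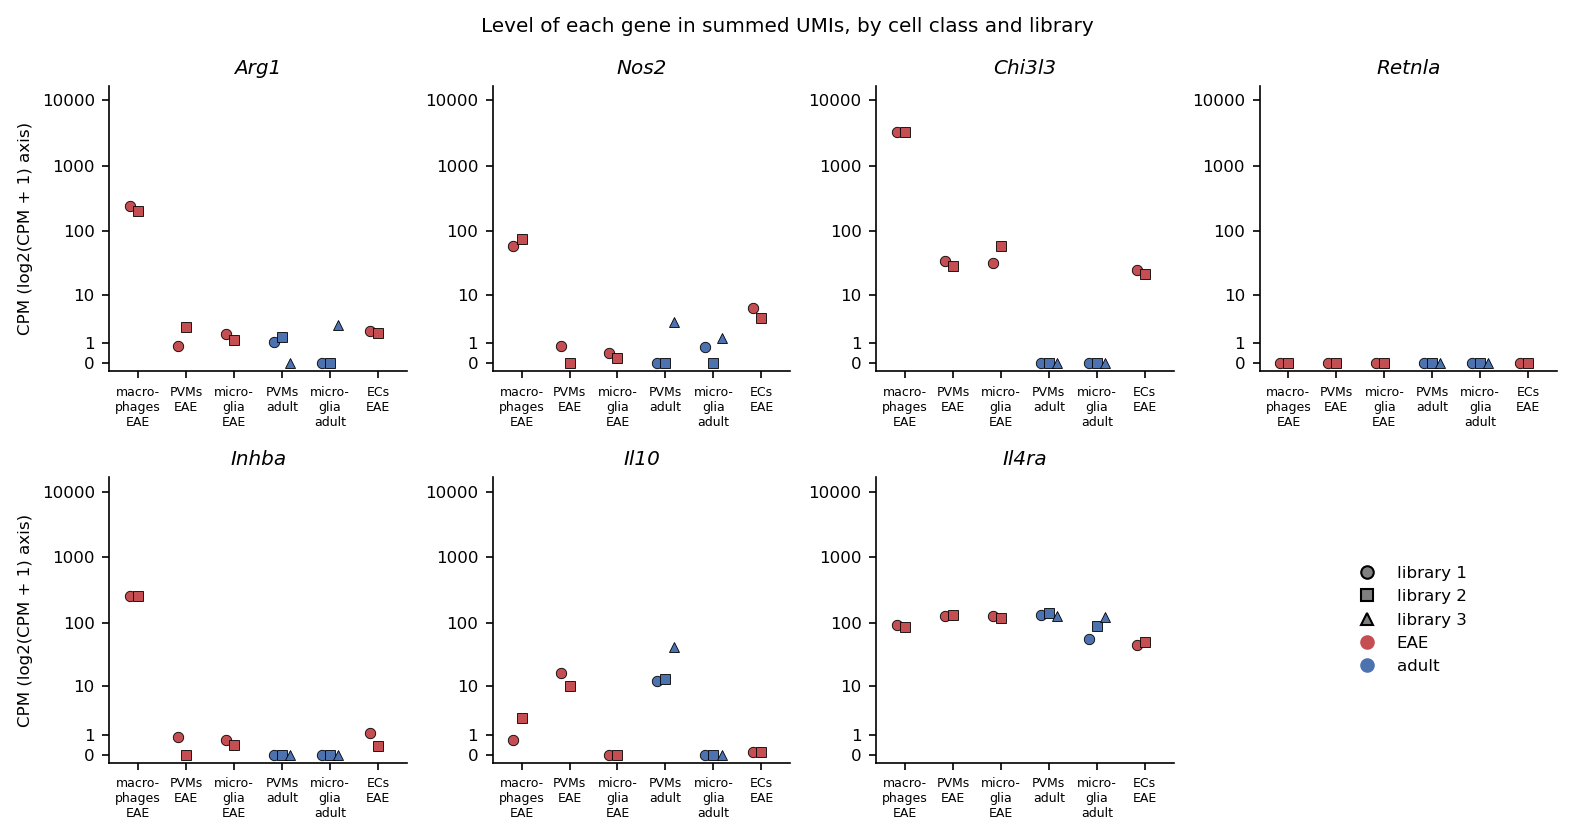
CPM of each of the 7 genes on a log2(CPM + 1) axis in summed UMIs of EAE macrophages, PVMs, microglia and endothelial cells (ECs, red) and of adult PVMs and microglia (blue), 1 point per library. *Arg1*, *Nos2*, *Chi3l3* and *Inhba* stood highest in EAE macrophages and *Il10* in PVMs. *Il4ra* differed less and was lower in EAE macrophages than in EAE PVMs and microglia on this scale. *Retnla* lay at 0 in all classes shown.

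Most UMIs of 4 of the genes came from the infiltrating macrophages although these were 9.06% and 8.63% of cells. They held 88.1% and 88.0% of all *Arg1* UMIs of the EAE libraries, 73.8% and 78.5% of *Nos2*, 81.0% and 82.2% of *Chi3l3*, and 90.4% and 88.3% of *Inhba*. For *Il4ra* the shares were 19.2% and 17%. *Il10* came from other cells as well, with 36.4% and 35.3% of its UMIs in PVMs and 47.3% and 23.5% in T or NK cells.

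*Arg1* in EAE PVMs was seen in 1 and 3 cells (0.83 and 2.57 CPM) and in EAE microglia in 8 and 6 cells (1.74 and 1.22 CPM). ECs stood at 2.09 and 1.85 CPM with a UMI in 0.637% and 0.572% of cells at a median depth of 2326 and 2394 UMIs, against 5854 and 5985 UMIs in macrophages. Adult ECs held 21 UMIs of it in 20 of 4185 cells, and whether ECs make it was not tested. The values of PVMs and microglia were thus near those of ECs, and those of macrophages lay far above in both libraries. The fitted log2 difference of macrophages was 7.31 (SE 0.73) from PVMs and 7.66 (SE 0.56) from microglia (edgeR quasi-likelihood test, adjusted p 3.9e-07 and 3.7e-09).

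*Nos2* had 1 UMI in PVMs and 3 UMIs in microglia of both EAE libraries, against 597 in macrophages. In CPM the macrophage level was 162 times that of PVMs (counting interval 28.9 to 6403) and 216 times that of microglia (73.6 to 1051), and both differences passed the test (edgeR adjusted p 4.5e-13 and 5.2e-18). *Inhba* had 1 UMI in PVMs and 5 in microglia against 2254 in macrophages. Its macrophage level was 611 times that of PVMs (109.6 to 24144, edgeR adjusted p 4.6e-18), and 9.23 higher than in microglia on the log2 scale (SE 0.28, edgeR adjusted p 1.5e-21). Both libraries lay on the same side for each of these differences, with no overlap between classes.

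*Chi3l3* stood at 35.0 and 29.1 CPM in EAE PVMs and at 32.5 and 59.7 CPM in EAE microglia, and 1 microglial cell of EAE 2 alone held 115 UMIs. The log2 difference of macrophages was 6.96 (SE 0.31) from PVMs and 6.61 (SE 0.29) from microglia (edgeR adjusted p 2.6e-10 and 9.6e-11). Endothelial cells held it too, at 25.3 and 21.7 CPM, below PVMs and microglia in both libraries. After each cell was thinned to 1500 UMIs, a UMI was found in 4.85% and 3.89% of microglia, 4.26% and 5.24% of PVMs and 3.79% and 3.06% of ECs, against 60.0% and 57.0% of macrophages. The shares of PVMs and microglia had exact intervals that overlapped those of ECs, and other classes stood near PVMs in CPM, with choroid plexus epithelium at 26.5 to 33.2, ependymal cells at 27.3 to 33.4 and mural cells at 27.8 to 28.7. PVMs and microglia were far below macrophages, and the part of free RNA in their values was not tested. Neutrophils were the other named class with a high level in both libraries, at 2107 and 3316 CPM. Clusters with markers of 2 classes stood at 551 to 1403 CPM, and astrocytes at 10.1 to 450 CPM, with a UMI in 4 of 72 cells.

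*Il10* was called higher in PVMs than in both other classes. It stood at 16.7 and 10.3 CPM in PVMs (12 and 10 cells), at 0.67 and 2.60 CPM in macrophages (3 and 7 cells) and at 0 in 2866 microglia. PVMs lay above macrophages in both libraries, with a log2 difference of macrophages from PVMs of -2.74 (SE 0.65, edgeR adjusted p 0.00098), and without EAE 1 the log2 difference of macrophages from PVMs was -1.67 (adjusted p 0.22) and without EAE 2 -4.25 (adjusted p 0.0035). In these fits each class has 1 library, which is assumed to vary like the other groups. Both PVMs and macrophages were called higher than microglia (edgeR adjusted p 5.7e-07 and 0.0015). The PVM level was 42.8 times a floor of 3 microglial counts over both libraries. This ratio leaves out the counting error of the 32 PVM UMIs. In a single library 3 counts in microglia would be 0.65 and 0.61 CPM, so that the PVM levels lay far above that floor in both libraries and the macrophage level of EAE 1 lay at it, and no fold is given for macrophages. ECs held 1 UMI of *Il10* in each EAE library.

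*Il4ra* differed least between the classes. It stood at 129 and 133 CPM in PVMs, at 126 and 119 CPM in microglia and at 92.2 and 86.2 CPM in macrophages, so that macrophages were lowest in both libraries on this scale. Plain CPM differed from the edgeR scale in the comparison with microglia by -0.47 (log2) and in that with PVMs by -0.30, and on the edgeR scale the difference from PVMs was -0.26 (95% interval -0.61 to 0.08, adjusted p 0.24) and from microglia 0.01 (-0.31 to 0.33, adjusted p 0.96). PVMs and microglia differed by 0.27 (-0.07 to 0.61, adjusted p 0.26). An alternative fit used the EAE sums alone, with the library as a block that pairs classes of the same pool of tissue. There the difference of macrophages from PVMs became -0.29 (edgeR adjusted p 0.0154) and that of PVMs from microglia 0.28 (adjusted p 0.0198). Both passed the threshold of 0.05. This fit also changed the samples behind the filter, scale and spread, and the part of the pairing alone was not tested. T or NK cells held 62.1 and 64.2 CPM and ECs 45.9 and 50.2 CPM.

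Across the 10562 genes tested, 38.7% differed between macrophages and PVMs, 20.8% being higher in macrophages and 17.9% lower, and of the 7 genes 4 were higher and 1 was lower. Against microglia 56.1% of genes differed, 27.6% being higher in macrophages and 28.5% lower, and of the 7 genes 5 were higher and 0 lower. Between PVMs and microglia 26.5% differed, 13.6% being higher in PVMs and 12.9% lower, and of the 7 genes 1 was higher (*Il10*) and 0 lower. *Retnla* passed the filter on low counts only through juvenile PVMs and had 0 UMIs in all groups of these comparisons.

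The UMIs of *Arg1*, *Nos2* and *Inhba* were concentrated in few macrophages. The 5% of cells with the most *Arg1* held 72% and 77.5% of its UMIs in EAE 1 and EAE 2, with up to 72 and 57 in 1 cell. For *Nos2* the top cells held 68.9% and 67.0% (up to 12 and 19 in 1 cell), and for *Inhba* 66.4% and 67.6% (up to 49 and 88). *Chi3l3* was more even, at 32.0% and 30.0%, although single cells reached 337 and 289 UMIs. Of the cells with *Arg1*, 59 and 46 held at least 6 UMIs, against 13 and 16 of those with *Nos2*, while no *Il4ra*-positive cell of EAE 1 and 2 of EAE 2 did.

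*Arg1* and *Nos2* were often found in the same macrophage. In EAE 1, 41 of 754 macrophages (5.44%, exact interval 3.93 to 7.30) held both transcripts, where 18.2 would if the 2 were independent across cells, and in EAE 2, 38 of 699 (5.44%, 3.88 to 7.39) against 17.3. Of the *Arg1*-positive cells 29.9% and 34.2% also held *Nos2*, and of the *Nos2*-positive cells 41.0% and 34.9% also held *Arg1*. In 18 and 14 cells both were present with at least 2 UMIs each. Detection thus did not divide the macrophages into an *Arg1* set and a *Nos2* set, and in most positive cells only 1 of them was detected (96 and 73 with *Arg1* alone, 59 and 71 with *Nos2* alone). Of the *Nos2*-positive cells 39 of 100 and 48 of 109 held 1 UMI. Cells counted with 1 transcript or neither may thus include cells in which a transcript was present but not captured.

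Depth raises detection of both genes in the same cells, so the count was repeated at equal depth. After thinning to 1500 UMIs, with 6 and 13 cells left out, 14 of 748 macrophages of EAE 1 (1.87%, 1.03 to 3.12) held both against 5.29 under independence, and 8 of 686 of EAE 2 (1.17%, 0.505 to 2.28) against 4.71. The odds ratio of detection was 3.84 and 1.95 after thinning and 4.04 and 3.79 before. Within 4 groups of cells of like depth it was 3.54 and 3.32. These ratios describe cells of 2 libraries and have no test, since cells are not replicates.

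**Figure D2:**
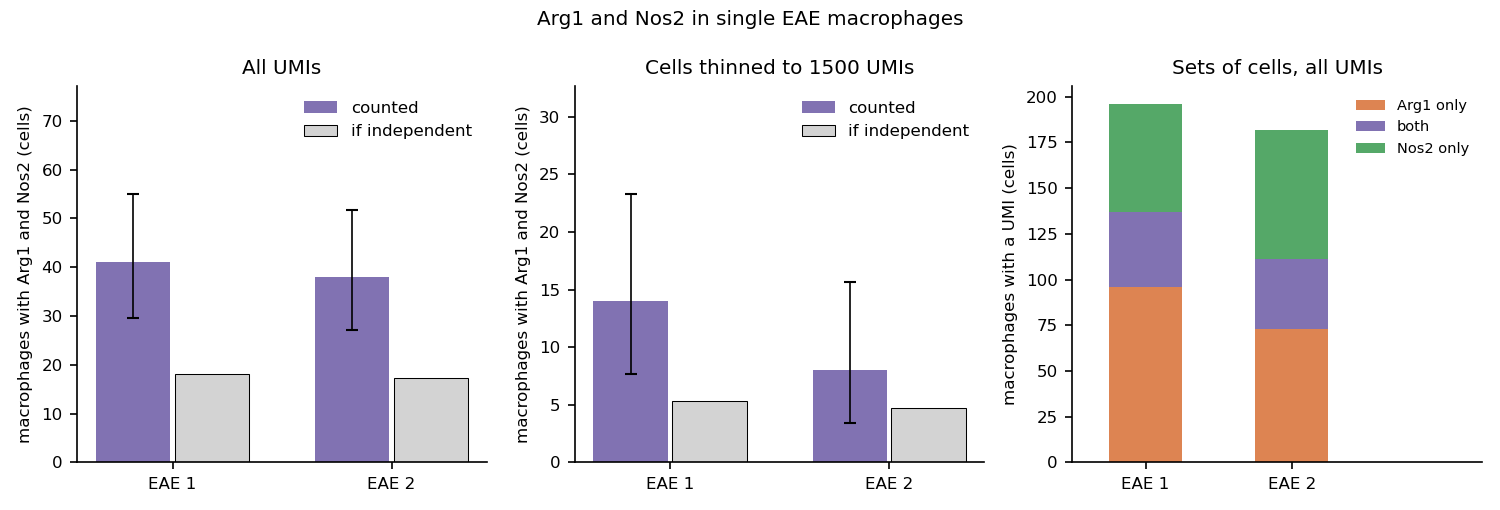
Number of EAE macrophages with a UMI of both *Arg1* and *Nos2* in each library (purple, bars with exact 95% binomial intervals) beside the number under independence (grey), with all UMIs (left) and at 1500 UMIs a cell (middle), and the sets of cells with either or both transcripts (right). Both libraries had more cells with both (41 and 38 with all UMIs) than under independence (18.2 and 17.3), and at equal depth the interval of EAE 2 reached down past its value under independence.

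No EAE cell of the PVM, microglial, EC, T or NK, neutrophil or choroid plexus classes held both transcripts. The count was 0 of 540 PVMs, 0 of 2866 microglia, 0 of 7106 ECs and 0 of 1786 T or NK cells, which allows shares of cells with a UMI of both of up to 0.556%, 0.105%, 0.0422% and 0.168%. These limits do not bound the share of cells that express both, since the cells were shallower than macrophages (median 4077 and 3969 UMIs in PVMs, 3044 and 3168 in microglia, 2326 and 2394 in ECs, 3291 and 3283 in T or NK cells). Clusters with markers of 2 classes, which were set aside, held 4 and 3 such cells among 248 and 220. A further set, with markers of both dendritic cells and macrophages, held 0 among 180 and 160 cells. Scrublet called 8 macrophages of each library doublets, and without them the thinned count of cells with both remained 14 and 8. Of the called cells 14 lay in 1 group of 28 macrophages with microglial markers. Whether a droplet held 2 macrophages was not tested.

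*Inhba* went with *Nos2* more than *Arg1* did. At equal depth the odds ratio of *Inhba* and *Nos2* was 5.46 and 7.78, and that of *Inhba* and *Arg1* 2.60 and 4.96. With all UMIs they were 6.09 and 10.02 for *Inhba* and *Nos2* and 3.35 and 2.5 for *Inhba* and *Arg1*, and within macrophage subclusters 3.18 and 3.97 and 2.18 and 1.57, lower in both libraries than over all macrophages. *Chi3l3*, found in most macrophages, gave 2.32 and 2.34 with *Arg1* and 1.36 and 1.01 with *Nos2*. *Il4ra* gave 0.482 and 0.979 with *Arg1*, 1.32 and 0.935 with *Nos2* and 0.930 and 0.934 with *Inhba*. The ratios of *Il4ra* with *Inhba* were thus close to 1, and those with *Nos2* lay on both sides of 1.

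Macrophages sorted by the 2 transcripts were compared over a list of 29 genes of arginine, nitric oxide and polyamine metabolism, of which *Slc7a2* and *Ass1* are described first because they followed the sets in both libraries, a choice made after their values were seen. The cells with neither transcript numbered 558 and 517, and median depth lay between 5687 and 6570 UMIs in all 4 sets. These sets rest on detection, so those with 1 transcript or neither may include cells in which a transcript was not captured. *Slc7a2*, the inducible arginine transporter, stood at 5.57 and 4.29 CPM in cells with neither, 25.7 and 21.1 with *Arg1* alone, 42 and 56.7 with *Nos2* alone and 37.3 and 82.1 with both. *Ass1*, which makes argininosuccinate from citrulline in the route back to arginine, stood at 272 and 235, 404 and 349, 681 and 959, and 824 and 858 CPM in the same order. In both libraries these genes were lowest in cells with neither transcript and higher in cells with *Nos2* than in cells with *Arg1* alone. *Slc7a2* rested on only 10 to 26 UMIs in a set. In EAE 1 it had 16 with *Arg1* alone, 16 with *Nos2* alone and 10 with both, and their order was not tested. *Odc1*, the ornithine decarboxylase that lies downstream of arginase, was low in all sets, at 20.7 and 15.2 CPM with neither and 24.1 and 25.3 with *Arg1* alone. *Sat1*, which acetylates polyamines, was highest with neither (1432 and 1517 CPM) and stood at 1078 and 1007 with both. The rest of the list did not share 1 direction. *Asl*, the enzyme after *Ass1* in the route to arginine, stood at 50.7 and 42.2 CPM with neither and 37.3 and 52.2 with both. *Gch1*, which starts synthesis of the synthase cofactor, stood at 113 and 109.5 CPM with neither and 183 and 175 with both. *Azin1*, which stabilises ornithine decarboxylase, stood at 56.3 and 60.0 CPM with neither and 52.2 and 93.2 with both, and *Oat*, an ornithine aminotransferase, at 55.7 and 47.8 with neither and 26.1 and 33.6 with both.

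**Figure D3:**
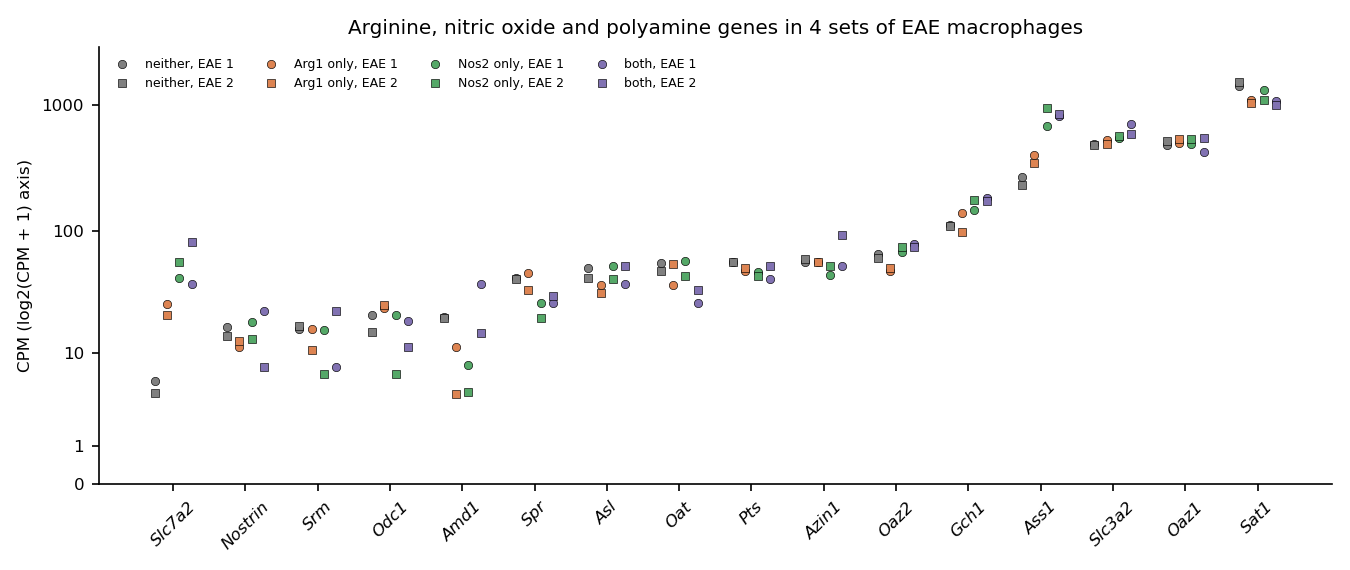
CPM, on a log2(CPM + 1) axis, of arginine, nitric oxide and polyamine genes in EAE macrophages with neither *Arg1* nor *Nos2*, with *Arg1* alone, with *Nos2* alone and with both, with 1 circle (EAE 1) and 1 square (EAE 2) for each set and *Arg1* and *Nos2* left out. *Slc7a2* and *Ass1* were lowest in the cells with neither, while *Oaz1* lay at 429 to 552 CPM in all sets.

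Of the M1-associated list, *Cxcl9*, *Irg1* and *Ccl5* are described because they were higher with *Nos2*, a choice made after their values were seen. *Cxcl9*, an interferon-gamma induced chemokine, stood at 97.5 and 128 CPM with neither, 116 and 158 with *Arg1* alone, 523 and 728 with *Nos2* alone and 683 and 612 with both. *Irg1*, which makes itaconate, stood at 26.0 and 28.0, 38.5 and 12.6, 108 and 153, and 116 and 149 CPM in that order. For both genes, cells with *Arg1* alone lay near cells with neither, and cells with both lay near cells with *Nos2* alone. *Ccl5*, a chemokine for T cells and monocytes, stood at 3021 and 2756 CPM with neither, 6041 and 7601 with *Arg1* alone, 8915 and 10503 with *Nos2* alone and 12993 and 8541 with both. Other members of the list went the other way. *Tnf*, an inflammatory cytokine, stood at 32.5 and 48.5 CPM with neither, 21.0 and 28.3 with *Nos2* alone and 26.1 in each library with both, and *Fcgr1*, an Fc receptor, at 370 and 355 with neither and 295 and 265 with both.

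Among M2-associated genes, members also moved both ways, and those named were chosen after their values were seen. *Il1rn*, the interleukin 1 receptor antagonist, was highest in cells with both transcripts (772 and 593 CPM, against 179 and 191 with neither). *Vegfa*, an angiogenic growth factor, stood at 280 CPM in each library with both and at 77.0 and 82.1 with neither. *Clec10a*, a lectin, stood at 22.0 and 19.8 CPM with neither and had 0 and 1 UMIs with both, and *Mrc1*, the mannose receptor, stood at 41.5 and 43.2 with neither and 18.7 and 26.1 with both. *Inhba* was also far higher where *Nos2* was present, at 636 and 1081 CPM with *Nos2* alone and 1056 and 873 with both, against 371 and 200 with *Arg1* alone and 126 and 87.7 with neither. *Chi3l3* was highest with *Arg1* alone, at 3984 and 4216 CPM, against 3019 and 3122 with neither, 3919 and 3084 with *Nos2* alone and 3305 and 3398 with both, and *Il4ra* stood between 70.9 and 105 CPM in all of them.

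The macrophages formed 7 subclusters, from a clustering that left the 7 genes out of its variable genes. *Nos2* lay mostly in subcluster 0 (405 cells, led by hemoglobin genes, *AA467197*, *Cxcl9* and *Ass1*), with a UMI in 33.5% and 45.1% of its cells in EAE 1 and EAE 2, and in 9.03% and 11.2% of subcluster 3 (289 cells, led by *Saa3*, *Fabp5* and *Gpnmb*). In the other large subclusters, 1 (340 cells, led by *Ifitm1*, *S100a4* and *Ccr2*) and 2 (290 cells, led by *Ccl12* and *C1qa*), it was found in 1.18% to 2.34% of cells. *Arg1* was most frequent in subcluster 3, at 36.1% and 38.1%, and next in subcluster 0, at 26.7% and 21.7%. It was found in 8.19% and 5.92% of subcluster 1 and in 2.84% and 3.36% of subcluster 2.

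Cells with both transcripts numbered 26 and 27 in subcluster 0 (11.8% and 14.7%) and 12 and 9 in subcluster 3 (7.74% and 6.72%), and 1 and 0 in subcluster 1. With all UMIs, the odds ratio of *Arg1* and *Nos2* was 2.90 and 3.06 within subclusters, beside 4.04 and 3.79 over all macrophages. *Inhba* lay in 43.4% and 50% of subcluster 0 and 24.5% and 21.6% of subcluster 3. *Chi3l3* had another pattern, with a UMI in all 43 and in 40 of 43 cells of subcluster 4 (led by *S100a8* and *S100a9*), in 81.9% and 82.1% of subcluster 0 and in 42.6% and 40.9% of subcluster 2. *Il4ra* varied little, between 27.9% and 40.0% in subclusters 0 to 4. Hemoglobin transcripts led subcluster 0 although EAE 2 held few of them, and their part in these shares was not tested. Subclusters 5 and 6 (28 and 15 cells) carried microglial and T cell markers, and 14 of the 28 were called doublets. Without both, the thinned share of cells with *Arg1* and *Nos2* was 1.93% and 1.20%.

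**Figure D4:**
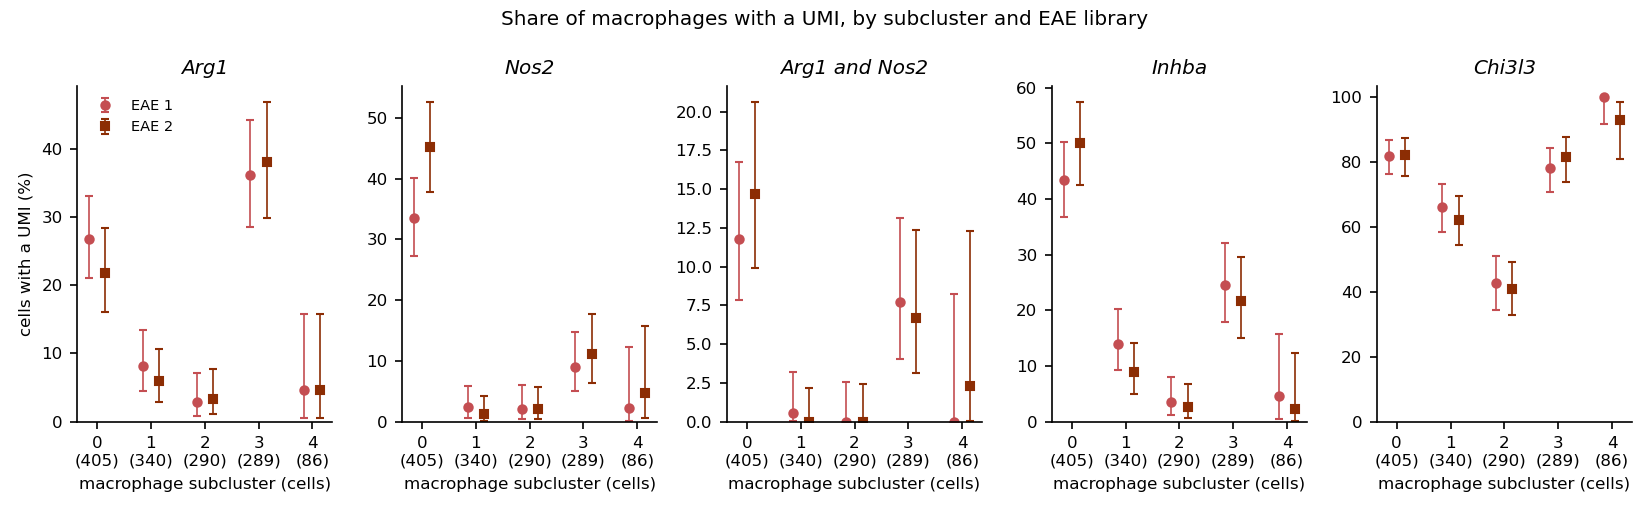
Share of cells with a UMI (%) of *Arg1*, *Nos2*, both, *Inhba* and *Chi3l3* in macrophage subclusters 0 to 4, with exact 95% binomial intervals, for EAE 1 (circles) and EAE 2 (squares). *Nos2* and *Inhba* peaked in subcluster 0, *Arg1* in subcluster 3, and *Chi3l3* was in nearly all cells of subcluster 4.

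The genes whose counts were most like *Arg1* across EAE macrophages, by Spearman rho in the lower of both libraries among 6672 genes seen in at least 5% of the cells, were *Cstb* (0.34 and 0.30), *Mif* (0.34 and 0.29), *Ccl5* (0.28 and 0.30), *AA467197* (0.28 and 0.29) and *Aldoa* (0.34 and 0.27). For *Nos2* they were *AA467197* (0.43 and 0.46), *Txn1* (0.37 and 0.37), *Ldha* (0.36 and 0.38), *Prdx5* (0.36 and 0.40) and *Fth1* (0.35 and 0.46). The rho of *Arg1* with *Nos2* was 0.24 and 0.22, and that of *Nos2* with *Inhba* 0.34 and 0.44. All are over 754 and 699 cells that share library and depth, and are given as description.

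Over the means of 54 groups of cell class and condition, the genes most like *Arg1* by Pearson r of log2(CPM + 1) were *Acoxl* (0.66), *Gpr83* (0.64), *Astl* (0.64), *Gm14085* (0.63) and *AF067061* (0.61), and the r of *Arg1* with *Nos2* was 0.30. For *Nos2* they were *SNORA62* (0.72), *Gm22061* (0.72), *A730015C16Rik* (0.66), *Trp53-ps* (0.63) and *Gm12575* (0.63). Classes share libraries here, and most of these genes are sparse.

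Cells with macrophage markers were too few outside EAE for a fitted comparison. In the 6, 9 and 8 adult cells *Chi3l3* stood at 480, 279 and 117 CPM, carried by 2, 3 and 3 cells, and *Arg1*, *Nos2* and *Inhba* had 0 UMIs. In the 59 aged cells *Chi3l3* stood at 2235 and 2579 CPM, with a UMI in 67.6% and 68.0% of cells, near the shares of EAE macrophages. *Arg1* was seen in 1 of these 59 cells and *Nos2* and *Inhba* in none, which allows up to 5.08% of cells with a UMI. The aged cells had a median depth of 4061 and 5124 UMIs against 5854 and 5985 in EAE macrophages, and the shares were not compared at equal depth. *Retnla* was found in 1 adult macrophage, with 5 UMIs.

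In microglia, *Il4ra* and *Chi3l3* were called higher in EAE than in adults. The cells compared lay mostly in different clusters with microglial markers. The largest for EAE held 2686 EAE and 5 adult cells, and the largest for adults 12 and 555. *Il4ra* stood at 126 and 119 CPM in EAE and at 57.5, 89.2 and 123 CPM in Adult 1, Adult 2 and Adult 3, and the groups overlapped. The log2 difference was 0.69 (SE 0.17, edgeR adjusted p 0.0016), in a comparison in which 29.9% of genes were called, 14.8% higher and 15.1% lower in EAE, and 2 of the 7 higher and 0 lower. Without Adult 1, the library that stood apart, it was 0.39 (adjusted p 0.0605), and with near-identical libraries summed to 1 it was 0.80 (adjusted p 0.103), so that neither fit gave a call. The latter leaves 1 EAE sample, assumed to vary like the other groups, and its difference was not smaller. The share of microglia with a UMI of *Il4ra* at 1500 UMIs was 18.7% and 18.0% in EAE and 8.25% to 15.2% in adults (exact permutation test over 3 and 2 libraries, two-sided p 0.2 where the smallest possible is 0.1, adjusted p 0.4 over 8 comparisons).

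The other gene called higher in EAE microglia was *Chi3l3* (edgeR adjusted p 9.9e-07), with 0 UMIs in adult microglia. Its EAE level was 40.6 times a floor of 3 adult counts, without the counting error of its 442 UMIs. *Chi3l3* stood at 32.5 and 59.7 CPM in EAE microglia beside 25.3 and 21.7 CPM in EAE ECs and 22.4 and 17.1 CPM in EAE T or NK cells. *Arg1* in microglia had 14 UMIs in EAE and 2 in adults (1.93 times in CPM, counting interval 0.443 to 17.5), and *Nos2* 3 and 2. *Inhba* had 5 and 0, and *Il10* and *Retnla* 0 in both. Induction of *Arg1*, *Nos2*, *Inhba* or *Il10* in EAE microglia was thus not detectable at this depth.

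EAE and adult PVMs also lay mostly in different clusters, 1 with 34 EAE and 518 adult cells and 1 with 506 and 39. In PVMs *Il4ra* stood at 129 and 133 CPM in EAE and at 130, 143 and 128 CPM in adults, with a log2 difference of 0.17 (95% interval -0.17 to 0.52, edgeR adjusted p 0.55), while the ratio of plain CPM was 0.984 (counting interval 0.837 to 1.16), on the other side of 1. Plain CPM differed from the edgeR scale by -0.19 (log2) in the comparison of EAE with adult microglia and by -0.20 in that of PVMs. *Il10* stood at 16.7 and 10.3 CPM in EAE and at 12.1, 13.4 and 43.1 CPM in adults, and the groups overlapped. Its log2 difference was -0.50 (SE 0.53, edgeR adjusted p 0.57), and 0.28 without Adult 3. Of all genes 18.9% were called in PVMs, 10.8% higher and 8.03% lower in EAE, and of the 7 genes 0 were lower and 1 was higher, *Chi3l3* (edgeR adjusted p 2.1e-05). It stood at 35.0 and 29.1 CPM beside 25.3 and 21.7 CPM in EAE ECs. Its EAE level in PVMs was 23.6 times a floor of 3 adult counts, without the counting error of its 76 UMIs. The effect of EAE on *Il4ra* was 0.52 lower in PVMs than in microglia on the log2 scale, a difference that did not pass correction (interaction contrast in edgeR over all genes, adjusted p 0.32). The exact permutation tests of the shares of PVMs with *Il10* and with *Il4ra* gave two-sided p 0.6 and 1.0 (adjusted p 0.69 and 1.0).

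Beyond myeloid cells, *Nos2* in ECs was lower in EAE. It stood at 5.81 and 3.89 CPM in EAE ECs and at 27.1, 15.3 and 17.7 CPM in adult ECs, with 17.7 and 16.2 CPM in aged and 26.2 to 30.7 CPM in juvenile ECs. All adult values lay above the EAE values, and so did all values of the other ages. At 1500 UMIs a cell, 0.924% and 0.723% of EAE ECs and 2.27% to 3.09% of adult ECs held a UMI (exact permutation test, two-sided p 0.1, the smallest that 3 and 2 libraries allow, adjusted p 0.15 over 6 comparisons). Adult 1 had only 88 cells called ECs, since 809 of its cells fell in clusters with markers of 2 classes, whose *Nos2* level was 15.2 CPM. The values of Adult 2 and Adult 3 rested on 112 UMIs in 1989 ECs and 130 UMIs in 2108 ECs, and those of EAE on 64 in 3610 and 42 in 3496.

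*Il4ra* in ECs was higher in EAE, at 45.9 and 50.2 CPM against 30.5, 21.9 and 20.6 CPM in adults, 19.5 and 20.3 in aged and 22.7 to 27.2 in juvenile ECs. The groups did not overlap, and the thinned shares were 5.83% and 6.31% against 2.73% to 3.06% (exact permutation test, two-sided p 0.1, adjusted p 0.15). The value of Adult 1, 30.5 CPM, rested on only 88 ECs. *Il10* in ECs had at most 2 UMIs in any adult or EAE library.

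**Figure D5:**
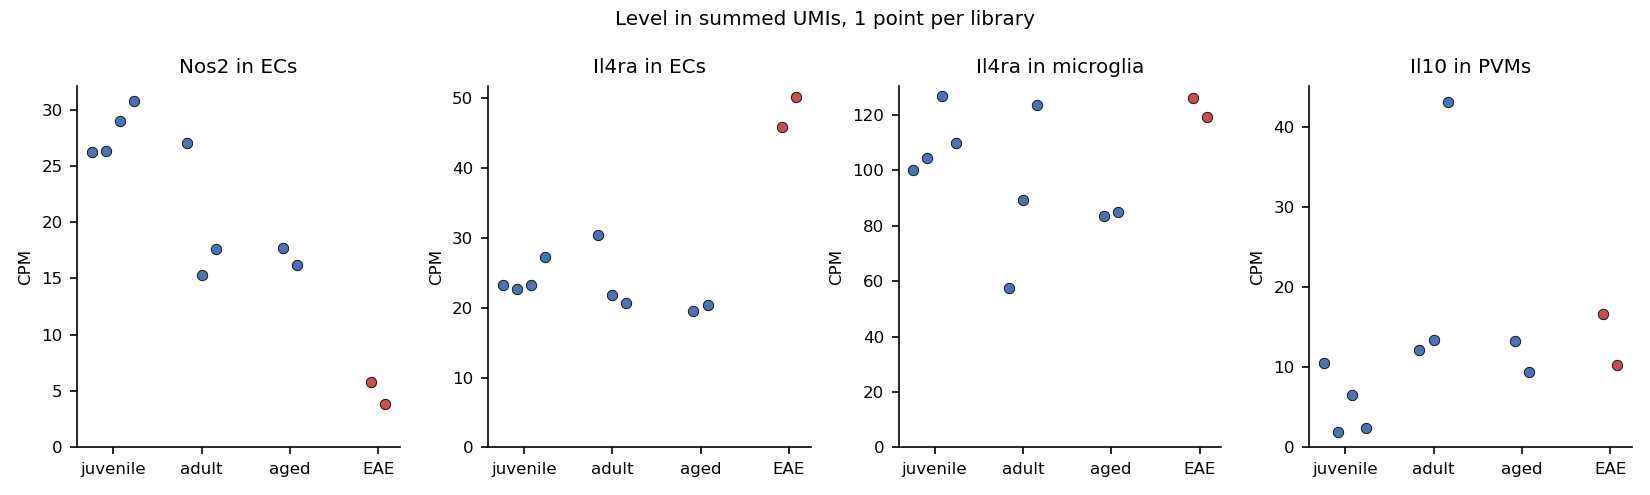
CPM of *Nos2* and *Il4ra* in ECs, *Il4ra* in microglia and *Il10* in PVMs, 1 point per library, in juvenile, adult and aged (blue) and EAE (red) libraries. *Nos2* in ECs was lowest and *Il4ra* in ECs highest in both EAE libraries, while the adult and EAE points of *Il10* in PVMs overlapped.

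*Retnla* and *Arg1* had their highest levels outside macrophages at postnatal day 10. *Retnla* stood at 12.6, 213, 4.38 and 340 CPM in the 4 juvenile PVM sums, carried by 2, 6, 2 and 4 cells, so that a few cells set the level. In juvenile microglia 270 UMIs of *Retnla* in Juvenile 3 came from 2 cells. *Arg1* stood at 9.86, 2.36, 14.9 and 20.4 CPM in juvenile microglia, above all EAE microglial values, and at 73.3 to 379 CPM in juvenile T or NK cells (9 to 56 cells a library).

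Of the wider list of M1-associated genes, 27 were tested. In EAE macrophages against PVMs 12 were higher and 3 lower (44.4% and 11.1% of the list, beside 20.8% and 17.9% of all genes), with a median log2 difference of 1.29 beside 0.02 over all genes. The most raised were *Nos2* and *Irg1*, the latter at 40.0 to 47.5 CPM in macrophages and 0.86 to 3.33 in PVMs (log2 difference 4.63), and the most lowered *Tnf* (-1.33) and *Irf1* (-1.30), an interferon-induced transcription factor. Against microglia 12 were higher and 5 lower (44.4% and 18.5%, beside 27.6% and 28.5% of all genes, median 0.15 beside -0.05), led by *Nos2* and *Fpr2*, a formyl peptide receptor (6.49), with *Tnf* (-3.17) and *Il1a* (-2.37) lowest. The inflammatory cytokines *Tnf* and *Il1a* were thus higher in microglia, at 387 to 483 and 294 to 301 CPM, than in macrophages, at 29.3 to 40.4 and 34 to 48.9 CPM. In EAE PVMs against microglia 6 were higher and 6 lower (22.2% each, beside 13.6% and 12.9%, median 0.07 beside -0.04), led by *Cd38* (6.14) and *Cd40* (3.13) and by *Il1a* (-3.73) and *Il6*, which had 1 UMI in PVMs and 124 in microglia.

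In EAE against adults, 14 M1-associated genes were higher and 0 lower in microglia (51.9% and 0%, beside 14.8% and 15.1% of all genes, median 1.08 beside -0.02), and 10 higher and 1 lower in PVMs (37.0% and 3.70%, beside 10.8% and 8.03%, median 0.61 beside -0.03). *Cxcl9* rose in microglia from 0 to 0.77 CPM in adults to 59.3 to 70.8 CPM in EAE, and *Gpr18* from 0 to 12.4 to 15.1 CPM. In PVMs *Ccl5* rose by 4.54 on the log2 scale and *Gpr18* from 0 to 3.19 CPM in adults to 8.34 to 9.41 CPM in EAE, while *Il23a* had 16 UMIs in adults and 0 in EAE. *Ccl5* stood at 2756 to 12993 CPM in the sets of EAE macrophages, and the part of free RNA in its PVM level was not tested. *Nos2* was called in neither comparison.

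Of 25 M2-associated genes tested, 8 were higher and 9 lower in macrophages than in PVMs (32.0% and 36.0%, beside 20.8% and 17.9% of all genes, median 0.07 beside 0.02). *Arg1* and *Chi3l3* led the higher genes, and *Cd209a*, a lectin with 1 UMI in macrophages and 131 in PVMs, and *Cd163* (-7.80), a scavenger receptor, the lower. *Cd163*, *Cd209a*, *Mrc1* and *Stab1* were among the markers from which clusters were named, so their direction was not independent of that choice. Against microglia 14 were higher and 3 lower (56% and 12%, beside 27.6% and 28.5%, median 2.60 beside -0.05), again led by *Arg1* and *Chi3l3*, with *Myc* (-1.71) and the chemokine *Ccl24* (-1.04) lowest, and between PVMs and microglia 13 were higher and 2 lower in PVMs (52% and 8.0%, beside 13.6% and 12.9%, median 1.06 beside -0.04), led by the lectins *Clec10a* (8.75) and *Mgl2* (7.98). In EAE against adults 5 were higher and 4 lower in microglia (20% and 16%, beside 14.8% and 15.1%), and 3 higher and 5 lower in PVMs (12% and 20%, beside 10.8% and 8.03%). There *Ccl17*, a chemokine for T cells, rose in PVMs from 0 to a range of 15 to 18.0 CPM, and *Ccl24* fell from 613 to 744 CPM to 77.0 to 102 CPM (-2.77), with *Egr2* at -1.91.

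Of 23 genes of arginine, nitric oxide and polyamine metabolism tested, 9 were higher and 3 lower in macrophages than in PVMs (39.1% and 13%, beside 20.8% and 17.9% of all genes, median 0.42 beside 0.02), and 12 higher and 6 lower than in microglia (52.2% and 26.1%, beside 27.6% and 28.5%, median 0.59 beside -0.05). *Ddah2*, which breaks down an inhibitor of nitric oxide synthase, was lowest against both (-2.20 and -3.64), and the amino acid transporter *Slc7a7* followed (-1.62 and -2.0). In EAE microglia 3 were higher and 8 lower than in adults (13% and 34.8%, beside 14.8% and 15.1%, median -0.46 beside -0.02), with *Ass1* (60 UMIs in EAE and 2 in adults) and *Pts* (1.36), an enzyme of the synthase cofactor, highest. *Ass1* stood at 235 to 959 CPM in the sets of EAE macrophages, and the part of free RNA in its microglial level was not tested. In EAE PVMs *Pts* was the 1 gene higher (0.67) and 5 were lower (4.35% and 21.7%, beside 10.8% and 8.03%, median -0.38 beside -0.03), and *Slc7a1*, the constitutive arginine transporter, fell by 2.14. PVMs against microglia gave 2 higher and 4 lower (8.70% and 17.4%, beside 13.6% and 12.9%).

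Signalling genes around *Il4ra*, *Il10* and *Inhba* were also followed. Of 15 genes of interleukin 4 and 13 signalling, 6 were higher and 1 lower in macrophages than in PVMs (40.0% and 6.67%, beside 20.8% and 17.9% of all genes), among them the feedback inhibitors *Cish* (101 UMIs in macrophages and 1 in PVMs) and *Socs1* (1.76), and 5 were higher and 1 lower than in microglia (33.3% and 6.67%, beside 27.6% and 28.5%). *Il4* itself was found in PVMs at 6.67 to 12.8 CPM and in macrophages at 0.22 to 0.47 CPM (3 UMIs). PVMs against microglia gave 2 higher and 2 lower (13.3% each, beside 13.6% and 12.9%). In EAE 5 of these genes rose in microglia (33.3%, beside 14.8% of all genes) and 3 in PVMs (20%, beside 10.8%). None fell in either, where 15.1% and 8.03% of all genes were lower. *Il2rg*, the partner chain of *Il4ra*, rose by 2.17 and 3.12.

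Of 13 genes of interleukin 10 signalling, 5 were higher and 4 lower in macrophages than in PVMs (38.5% and 30.8%, beside 20.8% and 17.9% of all genes), and 3 higher and 4 lower than in microglia (23.1% and 30.8%, near the 27.6% and 28.5% of all genes). *Nfil3*, a transcription factor, stood at 459 to 475 CPM in macrophages and 17.1 to 35.8 CPM in PVMs (4.43), while the receptor chains were lower, *Il10rb* against PVMs (-1.35) and *Il10ra* against microglia (-1.63). PVMs against microglia gave 2 higher and 4 lower (15.4% and 30.8%, beside 13.6% and 12.9%). In EAE 3 rose in microglia (23.1%, beside 14.8%) and 2 in PVMs (15.4%, beside 10.8%). None fell, where 15.1% and 8.03% of all genes were lower. *Ddit4* rose by 2.79 and 3.65.

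Of 11 activin genes, 3 were higher and 0 lower in macrophages than in PVMs (27.3% and 0%, beside 20.8% and 17.9% of all genes), and 3 higher and 4 lower than in microglia (27.3% and 36.4%, beside 27.6% and 28.5%). *Bambi*, a decoy receptor, followed *Inhba* among the higher genes (2.61 and 2.98), and the receptor *Acvr2b* (-3.58) and the inhibitor *Smad7* (-1.66) were lower than in microglia. PVMs against microglia gave 0 higher, beside 13.6% of all genes, and 4 lower (36.4%, beside 12.9%). EAE against adults gave 1 higher and 1 lower in microglia and 0 and 1 in PVMs (9.09% where 1 gene was called). Of all genes 14.8% and 15.1% were called in microglia and 10.8% and 8.03% in PVMs. Of the 4 chitinase-like and resistin-like genes tested, *Retnlg*, a neutrophil marker in the naming lists, was called higher beside *Chi3l3* in EAE microglia (2.56) and EAE PVMs (2.99). Of all genes 14.8% and 10.8% were called higher there. *Chi3l1* was lower in macrophages than in microglia (-2.92), as were 28.5% of all genes.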

How the data were processed

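UMI counts per gene and cell were deposited by the authors for each of the 11 libraries, and the submitters' processing notes name bcl2fastq 2.19.1.403, UMI-tools 0.5.3, STAR 2.5.3a, featureCounts 1.6.1 and the mm10 build. Cells with 500 to 6000 genes and under 25% mitochondrial UMIs were kept. They were clustered in Seurat 5.3.0 (scale factor 10000, 2000 variable genes without the 7 genes described, 12 components, resolution 0.5), in all cells, myeloid cells and then macrophages, and clusters were named from marker lists. Clusters with markers of 2 classes were set aside. Scrublet (scanpy 1.11.5) called 818 cells doublets (1.62%), which were kept in the main values. Counts were summed by class and library (at least 10 cells), and 24 sums of 9 groups were fitted together in edgeR 4.0.16 (R 4.3.3, quasi-likelihood test, TMM scaling, Benjamini-Hochberg adjustment, threshold 0.05), tested on simulated data. Alternatives were DESeq2 1.42.0, other filters, scalings and clusterings, left-out libraries, summed near-identical libraries (both EAE, both aged, Adult 2 and 3, Juvenile 1 and 2, Juvenile 3 and 4) and a library block. The block pairs EAE classes because they came from the same pool of tissue (correlations of deviations 0.03 to 0.11), and was fitted on the EAE sums alone. For EAE against adults the replicate number was the block, in a fit of that cell class alone. Shares were also taken after thinning each cell to 1500 UMIs, with Python 3.11.15, and intervals are exact Clopper-Pearson at 95%. Genes named from the wider lists in the fitted comparisons were mainly those with the largest changes in each direction among the called, and those named in the sets of macrophages, which had no test, were chosen after their values were seen. The 5 genes most like *Arg1* and *Nos2* were also named. Members and lists were chosen with earlier results of these data known.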

Additional observations from a re-analysis of the deposited data

Results flagged for a closer look

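Of 13 groups of 4 libraries in which the gap of the most distant library could be tested by Dixon's criterion, 2 stood out. Chance gives about 1 in 20 for continuous values, a rate that does not hold for counts this sparse, where 1 cell can set the criterion. *Arg1* in juvenile PVMs was at 11.2 CPM in Juvenile 2, from 1 cell, and at 0 in the other juvenile libraries. *Retnla* in juvenile microglia was at 97.9 CPM in Juvenile 3, from 2 cells, and at 0.29 to 6.07 CPM in the others.

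*Chi3l3* was above the adult level in aged cells outside the comparisons, at a mean of 6.00 CPM in microglia, 5.37 CPM in PVMs and 5.35 CPM in ECs, where adult means were 0, 0 and 0.14 CPM. Aged macrophages and neutrophils of the same libraries held 2235 to 3423 CPM of *Chi3l3*, and the part of free RNA in these values was not tested.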

How the results depend on the processing

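Of 14 results for single genes, 6 kept their direction and side of the threshold under all alternatives run. With near-identical libraries summed, calls fell from 4088 to 2086 (macrophages against PVMs), 5923 to 3482 (macrophages against microglia), 2802 to 1088 (PVMs against microglia), 3161 to 1084 (EAE against adult microglia) and 1991 to 639 (EAE against adult PVMs). Leaving out 1 library gave 2311 to 2450, 3852 to 3951, 1338 to 1397, 1795 to 2882 and 1011 to 1843 calls in that order. These alternatives use fewer samples, and where 1 sample of a group is left it is assumed to vary like the other groups. The share of macrophages with *Arg1* and *Nos2* was 1.53% at 1500 UMIs, 3.37% at 3000 and 5.44% with no thinning. By library it was 1.17% to 1.87%, and the ratio to independence 1.70 to 2.64. The following changes of sign were all of differences that were not called. *Il4ra* in macrophages against microglia became -0.037 at resolution 0.9, -0.00066 without EAE 1 (0.016 without EAE 2) and -0.0099 with the replicate block. Without EAE 2, PVMs against microglia became -0.84 for *Arg1* and 0.28 for *Chi3l3* (1.20 and -0.86 without EAE 1). *Il10* in EAE against adult PVMs became 0.28 without Adult 3 (-0.88 without EAE 1) and 0.11 with the replicate block, although there EAE and adult libraries share only a number (correlations of deviations -0.04 to 0.04). *Il10* in macrophages against PVMs lost its call without EAE 1 (-1.67). *Il4ra* in EAE microglia lost its call without Adult 1 (0.39) and with libraries summed (0.80), and gained one with the block in macrophages against PVMs (-0.29) and PVMs against microglia (0.28). The causes were not tested. The fits with a block used only the EAE sums, or only that cell class for EAE against adults, and changed no other call among the 14 results. Depth limits *Il10*, *Nos2* and *Inhba* outside macrophages, where counts were few.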
